A study of Homo sapiens with 6 samples.

Results

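The plasminogen activation system was followed in HCCLM3 cells through 9 of the 58302 genes listed in each library. The 9 genes were picked by name, with no threshold on a measured value: the activators PLAU and PLAT, the urokinase receptor PLAUR, the inhibitors SERPINE2, SERPINB6 and SERPINB8, tissue factor F3, and the Kunitz-type inhibitors TFPI and TFPI2. Each name matched 1 row in every file. HCCLM3 is a human liver cancer line chosen for its high metastatic capacity, and it was sequenced as RNA from bulk cells. The SCARNA13 ASO group (3 libraries) received, by transfection, an antisense oligonucleotide (ASO), a synthetic nucleic acid that binds its target RNA by base pairing and is used to lower it; its target here is the small Cajal body-specific RNA SCARNA13. The Control ASO group (3 libraries) had been transfected with a control oligonucleotide. All 6 libraries came from this 1 cell line, and the labels do not say that they were separate cultures, so the p-values below reflect the spread among libraries only, and that spread may be technical. The labels set out 1 comparison, the response of these cells to targeting SCARNA13.

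Plasminogen is an inactive protein of plasma, made mainly by hepatocytes, that is cut to the protease plasmin by urokinase (PLAU) or tissue-type plasminogen activator (PLAT). Urokinase works at the cell surface, bound to its receptor PLAUR, while serpins trap the activators in inactive complexes that endocytic receptors clear. Plasmin dissolves fibrin and breaks down matrix, and tissue factor (F3) starts the opposite process, blood clotting. Tumour cells can make their own activators, receptor and tissue factor.

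Expression is given as FPKM, fragments scaled to gene length and to a library size, so levels can be compared between genes. Libraries held 20457474 to 23326235 assigned reads after SCARNA13 ASO and 20663908 to 25173559 after Control ASO. SCARNA13 itself rested on 2, 3 and 2 reads after SCARNA13 ASO and on 6, 5 and 2 reads after Control ASO, so its lowering could not be resolved. Why so few reads fell on SCARNA13 was not tested. The 2 libraries numbered 3 stood apart from the others: log2 values correlated across genes at 0.90 to 0.939 between them and any library numbered 1 or 2, and at 0.988 to 0.994 among the libraries numbered 1 and 2. In the top quartile of genes by GC content, the typical (median) deviation from the 6-library mean was 0.69 on the log2 scale in SCARNA13 ASO 3 and 0.93 in Control ASO 3, against -0.36 to -0.44 in the other 4. The library size behind the deposited FPKM was 1.235, 1.222 and 0.76 times the assigned reads after SCARNA13 ASO and 1.208, 1.218 and 0.633 times after Control ASO, so FPKM puts the libraries numbered 3 higher than a scaling to assigned reads does. Whether the groups overlap in FPKM depends on that scaling, and RPM values, the recovered reads of a gene per 1000000 assigned reads, were added after the data were seen and stand beside the results. Values of the 9 genes are given library by library, in the order of the replicate numbers. Most hepatocyte markers were absent from this liver cancer line: 8 of 11 stayed under 1 FPKM in every library, and ALB, APOA2, APOB and FGB were listed at 0 throughout, while SERPINA1, KRT8 and KRT18 were detected.

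The activators differed between the groups in opposite directions, and both passed in the fit that allowed for GC content and for the replicate numbers, though not with group as the only term. PLAT, which encodes the activator best known for dissolving clots, measured 98.8, 100.3 and 98.8 FPKM after SCARNA13 ASO, against 71.0, 71.7 and 64.7 FPKM after Control ASO. In FPKM all SCARNA13 ASO libraries lay above all Control ASO libraries. PLAT had 807, 812 and 497 RPM after SCARNA13 ASO, against 568, 578 and 271 after Control ASO, where the groups overlapped and 3 of 3 pairs were higher. PLAU, which encodes urokinase, measured 53.2, 48.6 and 75.1 FPKM after SCARNA13 ASO, against 65.8, 62.3 and 115 FPKM after Control ASO. In FPKM both libraries numbered 3 were high and the groups overlapped. In RPM PLAU had 194, 175 and 168 after SCARNA13 ASO, against 234, 224 and 215 after Control ASO, where the libraries numbered 3 were the lowest of their group and the groups did not overlap. On both scales the SCARNA13 ASO library was the lower one in 3 of 3 pairs of the same number. PLAT averaged 99.3 ± 0.883 FPKM after SCARNA13 ASO and 69.2 ± 3.84 FPKM after Control ASO, while PLAU averaged 59.0 ± 14.1 FPKM and 81.0 ± 29.5 FPKM in the same groups (SD, n = 3 each).

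**Figure D1:**
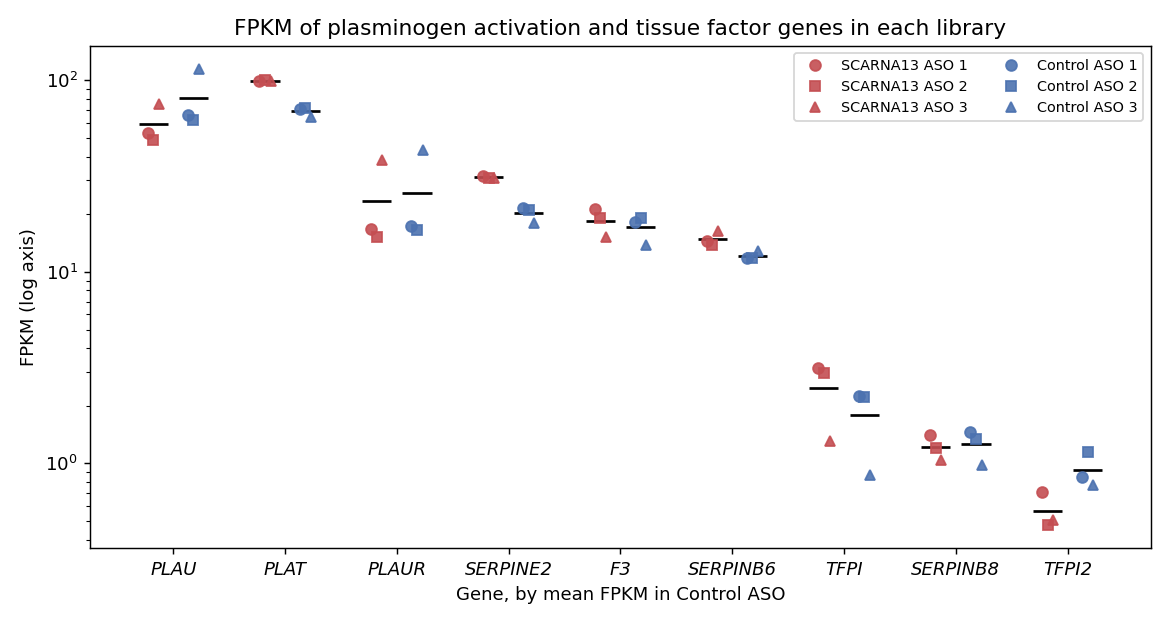
Each point is the FPKM of a gene in 1 library (log axis), with SCARNA13 ASO in red on the left and Control ASO in blue on the right of each gene, replicate numbers as symbols and the group mean as a black line. PLAT, SERPINE2 and SERPINB6 had all SCARNA13 ASO points above all Control ASO points, and TFPI2 had them below; in RPM these 4 genes overlap.

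The test across all genes depended on how the libraries numbered 3 were handled. With group as the only term, limma-trend on log2(FPKM + 0.5) passed 0 of 10120 genes at an adjusted p under 0.05 (0.0% called in either direction, and 0 of the 8 genes of the set that entered), although 173 had an unadjusted p under 0.05. The same fit gave PLAT a log2 fold change of 0.52 ± 0.21 and PLAU one of -0.42 ± 0.34 (SE, n = 3; limma adjusted p = 1.0 for each, unadjusted p = 0.0491 and 0.261). limma-voom on reads recovered from the FPKM values also passed 0 genes, with 162 at an unadjusted p under 0.05. With the replicate number as a block the count was again 0, the adjusted p being 0.0668 for PLAT and 0.0941 for PLAU. When a trend on GC content was removed from each library and the replicate number was kept as a block, 526 of the 10104 genes with a GC value passed (5.21%, with 3.06% higher and 2.15% lower). In that fit, 8 of the 9 genes were tested, of which 2 rose, 1 fell and 5 did not pass.

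PLAT rose 1.43-fold there, a log2 fold change of 0.52 ± 0.048 (SE, n = 3; limma adjusted p = 0.036), and PLAU fell by 22.7%, a log2 fold change of -0.37 ± 0.060 (limma adjusted p = 0.0438). Both calls were lost when a pair other than the third was left out: the adjusted p of PLAT was 0.0924 with the pair numbered 1 left out and 0.114 with the pair numbered 2 left out, and that of PLAU was 0.119 and 0.152. Without replicate 3 of both groups PLAT had an adjusted p of 0.0289 and PLAU one of 0.0329 in the same limma fit. Within pairs, PLAT differed by 0.47, 0.48 and 0.61 on the log2 scale, and PLAU by -0.30, -0.35 and -0.61. The exact two-sided permutation test on FPKM gave p = 0.1 for PLAT, the smallest that 3 against 3 libraries allow, and p = 0.4 for PLAU; in RPM it gave p = 0.3 for PLAT and p = 0.1 for PLAU. Fewer cells making an RNA and less RNA per cell cannot be told apart in bulk samples.

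PLAT (GRCh38 chromosome 8, 42175233 to 42207724, minus strand) shares no annotated exonic base with another gene, and its values rest on 46846 reads after SCARNA13 ASO and 32543 after Control ASO. Endothelial cells are a known source of PLAT and TFPI, and 7 of 8 endothelial markers stayed under 1 FPKM in every library, with KDR and TEK listed at 0. The endothelial markers summed to between 0.541 and 0.916 FPKM after SCARNA13 ASO and to between 0.548 and 2.14 FPKM after Control ASO. PLAU (chromosome 10, 73909177 to 73917497, plus strand) had 11794 reads after SCARNA13 ASO and 15232 after Control ASO. Exons of C10orf55 on the opposite strand cover 916 of its 2950 exonic bases (31.1%), and a library that does not record strand cannot assign reads there. C10orf55 itself held 25, 18 and 20 reads after SCARNA13 ASO and 21, 21 and 21 after Control ASO.

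The receptor passed in neither fit. PLAUR, which anchors urokinase to the cell surface, measured 16.8, 15.2 and 38.6 FPKM after SCARNA13 ASO, against 17.5, 16.6 and 43.0 FPKM after Control ASO. In FPKM both libraries numbered 3 were more than double the others in their group, and the groups overlapped. PLAUR had 92.7, 82.7 and 131 RPM after SCARNA13 ASO, against 94.0, 90.3 and 122 after Control ASO, a smaller gap. In FPKM the SCARNA13 ASO library was lower in 3 of 3 pairs, and in RPM in 2 of 3. The FPKM pairs had log2 differences of -0.050, -0.13 and -0.16. Its log2 fold change was -0.11 ± 0.52 with group alone (SE, n = 3; limma adjusted p = 1.0) and -0.051 ± 0.053 with GC correction and block (limma adjusted p = 0.543). With group alone the direction turned when Control ASO 3 was left out (0.33), and when SCARNA13 ASO 1 (0.060) or SCARNA13 ASO 2 (0.13) was left out. PLAU and PLAUR, whose FPKM was high in the libraries numbered 3, have a GC content of 54.0% and 55.7%. TFPI (41.5%), SERPINB8 (42.3%) and F3 (43.7%) were lowest there in both groups on both scales. In FPKM SERPINB6 (43.5%) was highest there in both groups. SERPINE2 (41.0%), PLAT (45.6%) and TFPI2 (39.8%) were lowest there in FPKM only after Control ASO. The part of GC content in single genes was not tested. PLAUR (chromosome 19, 43646095 to 43670547, minus strand) shares no exonic base with another gene.

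Sequences upstream of a start site are shown for PLAU, SERPINE2 and F3. With GC correction and block PLAU fell, SERPINE2 rose and F3 did not pass, and with group alone none of these genes passed. The sequences come from RefSeq on GRCh38.p14 and run 5′ to 3′ on the strand of the gene. They stop where an annotated exon of the gene begins. Capitals mark matches on either strand to the AP-1 motif TGANTCA and to the GC box GGGCGG.
PLAU, chr10:73910882-73911103, plus strand: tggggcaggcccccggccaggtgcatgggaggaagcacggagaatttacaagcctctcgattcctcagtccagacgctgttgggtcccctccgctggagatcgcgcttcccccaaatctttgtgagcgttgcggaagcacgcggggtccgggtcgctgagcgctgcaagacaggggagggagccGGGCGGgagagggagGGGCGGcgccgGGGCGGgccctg
SERPINE2, chr2:224031479-224031728, minus strand: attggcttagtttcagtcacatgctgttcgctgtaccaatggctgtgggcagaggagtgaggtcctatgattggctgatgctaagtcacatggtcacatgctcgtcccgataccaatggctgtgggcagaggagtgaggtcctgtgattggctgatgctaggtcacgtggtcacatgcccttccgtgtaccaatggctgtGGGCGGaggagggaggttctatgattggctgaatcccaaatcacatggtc
F3, chr1:94541801-94542009, minus strand: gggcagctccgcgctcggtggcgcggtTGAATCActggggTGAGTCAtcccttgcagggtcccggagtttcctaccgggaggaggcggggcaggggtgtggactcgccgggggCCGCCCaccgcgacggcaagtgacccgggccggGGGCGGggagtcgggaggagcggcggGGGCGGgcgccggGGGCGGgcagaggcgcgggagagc
The PLAU stretch held 3 GC boxes at 66, 51 and 40 bases before the RefSeq start, and no AP-1 match. The SERPINE2 stretch held 1 GC box at 50 bases and 1 E-box at 87 bases before its start, and no AP-1 match. Both stretches lie within the annotated span of their gene, and each gene has a further window that is not shown. That of SERPINE2, nearer the 5′ end of the gene, held 2 GC boxes at 230 and 183 bases, and no E-box or AP-1 match. That of PLAU held 1 GATA core (GATAA) at 175 bases, and no GC box or AP-1 match. F3 had 2 AP-1 matches, at 223 and 210 bases, and 4 GC boxes.

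Those matches were set against all promoters of the same table. Among 34943 windows of 250 bases, 6.59% held the AP-1 motif and 42.5% held the GC box. Further motifs searched were the E-box CACGTG (6.32% of windows), the cyclic AMP response element TGACGTCA (1.63%), the GATA core GATAA (20.5%) and the ETS core CCGGAA (14.5%). None of the 6 motifs contains another. For 8 of the 9 genes the table gave 13 windows that were searched, and some genes had several starts. Besides F3, the AP-1 motif was found in windows of PLAUR (186 bases before the start), TFPI2 (87 bases) and SERPINB8 (185 and 28 bases). Annotated exons of the gene itself cover 250 bases of the PLAUR window, 238 of the TFPI2 window and 156 of the SERPINB8 window. Of these matches, only that of SERPINB8 at 185 bases lies outside those exons. A match describes the letters and is no measurement of binding.

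Among the serpins, SERPINE2 gave the highest fold change of the 8 genes tested. It encodes protease nexin 1, a secreted inhibitor of thrombin, urokinase and tissue-type activator. SERPINE2 measured 31.7, 30.8 and 31.0 FPKM after SCARNA13 ASO, against 21.6, 21.1 and 18.0 FPKM after Control ASO. In FPKM the groups did not overlap. SERPINE2 had 349, 334 and 210 RPM after SCARNA13 ASO, against 232, 228 and 101 after Control ASO, where the groups overlapped and 3 of 3 pairs were higher. It rose 1.51-fold with GC correction and block (log2 fold change 0.60 ± 0.054, SE, n = 3; limma adjusted p = 0.036) and stood at 0.62 ± 0.20 with group alone (limma adjusted p = 1.0, unadjusted p = 0.0197). The adjusted p of SERPINE2 was 0.0908 with the pair numbered 1 left out and 0.106 with the pair numbered 2 left out. Within pairs of FPKM it differed by 0.55, 0.53 and 0.77 on the log2 scale, and the exact permutation test gave p = 0.1 on FPKM and p = 0.3 in RPM. SERPINE2 (chromosome 2, 223975112 to 224039319, minus strand) shares no exonic base with another gene, and its values rest on 19744 reads after SCARNA13 ASO and 12922 after Control ASO.

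The other serpins of the set work mostly inside cells. SERPINB6, an inhibitor of trypsin-like proteases and cathepsin G, measured 14.4, 13.8 and 16.3 FPKM after SCARNA13 ASO, against 11.8, 11.8 and 12.9 FPKM after Control ASO. In FPKM the groups did not overlap, and all 3 pairs differed upwards, by 0.28, 0.22 and 0.33 on the log2 scale. In RPM they overlapped, at 84.4, 79.7 and 58.5 after SCARNA13 ASO against 67.5, 67.9 and 38.6 after Control ASO, with 3 of 3 pairs higher. SERPINB6 missed the threshold with GC correction and block (0.26 ± 0.051, SE, n = 3; limma adjusted p = 0.0525). The call was mixed in replicates 1 and 2 alone (limma adjusted p = 0.0463 with group as the only term, which passes, and 0.0599 with the replicate block, which does not). SERPINB8, which can inhibit the convertase furin, was low at 1.41, 1.20 and 1.04 FPKM after SCARNA13 ASO, against 1.46, 1.34 and 0.976 FPKM after Control ASO. Its groups overlapped, and the fit with GC correction and block gave SERPINB8 -0.043 ± 0.093 on the log2 scale (SE, n = 3; limma adjusted p = 0.775). SERPINB6 (chromosome 6, 2948159 to 2972165, minus strand) gave p = 0.1 in the exact permutation test on FPKM (p = 0.3 in RPM) and SERPINB8 (chromosome 18, 63969925 to 64019779, plus strand) gave p = 0.9. HMSD and a further gene on the opposite strand cover 10.7% of the exonic bases of SERPINB8, which rested on 521 reads after SCARNA13 ASO and 544 after Control ASO.

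**Figure D2:**
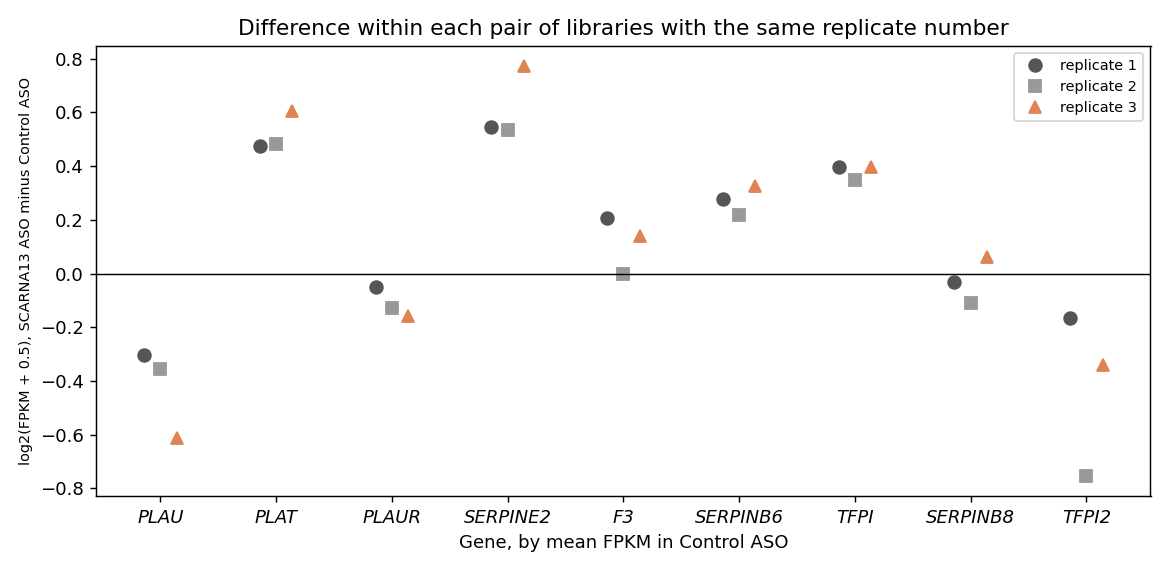
Each point is the difference in log2(FPKM + 0.5) between the SCARNA13 ASO and the Control ASO library of the same replicate number, for each gene. PLAT, SERPINE2, SERPINB6 and TFPI lie above 0 in 3 of 3 pairs, and PLAU, PLAUR and TFPI2 lie below 0 in 3 of 3 pairs.

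On the clotting side, neither tissue factor nor TFPI passed with all 6 libraries. F3, the membrane receptor that starts coagulation, measured 21.2, 19.2 and 15.2 FPKM after SCARNA13 ASO, against 18.3, 19.2 and 13.8 FPKM after Control ASO. In FPKM the groups overlapped, and within pairs F3 differed by 0.21, -0.001 and 0.14 on the log2 scale. In RPM F3 had 75.2, 67.3 and 33.2 after SCARNA13 ASO, against 63.4, 67.1 and 25.1 after Control ASO. The groups overlapped there too, and 3 of 3 pairs were higher. The log2 fold change of F3 was 0.11 ± 0.060 with GC correction and block (SE, n = 3; limma adjusted p = 0.277). TFPI, which blocks the complex of tissue factor with factor VIIa, measured 3.13, 2.96 and 1.31 FPKM after SCARNA13 ASO, against 2.26, 2.21 and 0.874 FPKM after Control ASO. Both libraries numbered 3 were low, so the groups overlapped, while 3 of 3 pairs were higher after SCARNA13 ASO by 0.40, 0.35 and 0.40 on the log2 scale. TFPI stood at 0.36 ± 0.082 with GC correction and block (SE, n = 3; limma adjusted p = 0.0662), and in replicates 1 and 2 alone passed with group as the only term (limma adjusted p = 0.0419) but not with the replicate block (0.0589) or with GC correction and block (0.0536). The exact permutation test gave p = 0.6 for F3 (chromosome 1, 94529225 to 94541800, minus strand) and p = 0.5 for TFPI (chromosome 2, 187464230 to 187565760, minus strand). TFPI rested on 2221 reads after SCARNA13 ASO and 1629 after Control ASO.

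TFPI2, a matrix-bound Kunitz inhibitor of plasmin and trypsin, was the lowest of the set. It measured 0.705, 0.474 and 0.507 FPKM after SCARNA13 ASO, against 0.852, 1.14 and 0.775 FPKM after Control ASO. Its mean of 0.743 FPKM was under the minimum of 1 FPKM, so it did not enter the fit. In FPKM all SCARNA13 ASO libraries were below all Control ASO libraries, and the exact permutation test gave p = 0.1; in RPM the groups overlapped (p = 0.3). These values come from 51, 36 and 21 reads after SCARNA13 ASO and 69, 81 and 27 reads after Control ASO. Scaled to library size, reads of TFPI2 after SCARNA13 ASO were 0.601 times those after Control ASO (exact 95% interval 0.469 to 0.768, for counting error alone). In the fit with group alone and no filter on low values, the log2 fold change of TFPI2 was -0.42 (limma adjusted p = 1.0). TFPI2 (chromosome 7, 93885397 to 93890991, minus strand) shares 4.59% of its exonic bases with genes on the opposite strand.

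Across the set, 3 of the 8 tested genes did not overlap between groups in FPKM, all of them higher after SCARNA13 ASO, where 8.44% of all tested genes did not overlap in either direction and 4.0% did so on the higher side and 4.44% on the lower. The same direction in 3 of 3 pairs was seen for 6 of the 8, 4 higher and 2 lower, against 53.6% of all tested genes (23.9% higher and 29.6% lower). In RPM these counts changed: 0 of the 8 were higher and 1, PLAU, was lower without overlap, against 8.81% of all tested genes (5.25% higher and 3.57% lower), and 5 were higher and 1 lower in 3 of 3 pairs, against 52.7% (33.9% higher and 18.8% lower). PLAT, SERPINE2, SERPINB6, TFPI and PLAU kept 1 direction in 3 of 3 pairs on both scales. With GC correction and block the median log2 fold change of the 8 was 0.19, and that of all genes tested was 0.0; with group alone these were 0.20 and -0.02. In replicates 1 and 2 alone, with group as the only term, 4 of the 8 rose and 1 fell, against 4.52% and 4.59% of all genes (9.11% together). With the block in those libraries PLAT and SERPINE2 rose and PLAU fell, against 3.32% and 2.9% of all genes (6.22% together).

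Within a library PLAT was above PLAU in all but Control ASO 3, a library that stood apart from those numbered 1 and 2. Only through that library did the ranges of FPKM at the top of the order differ by group. In Control ASO 1 and 2 PLAT was at 71.0 and 71.7 FPKM, above PLAU at 65.8 and 62.3 FPKM. After SCARNA13 ASO the lowest PLAT library, at 98.8 FPKM, was above the highest PLAU library, at 75.1 FPKM. After Control ASO the ranges of PLAU and PLAT overlapped, with Control ASO 3 holding both the highest PLAU value, 115 FPKM, and the lowest PLAT value, 64.7 FPKM. SERPINE2 lay above F3 without overlap after SCARNA13 ASO, where its lowest library was at 30.8 FPKM and the highest F3 library at 21.2 FPKM. After Control ASO their ranges overlapped, but SERPINE2 was above F3 within every library of both groups. In the controls SERPINE2 measured 21.6, 21.1 and 18.0 FPKM, and F3 measured 18.3, 19.2 and 13.8 FPKM. F3 and SERPINB6 went the other way, with ranges apart after Control ASO and overlapping after SCARNA13 ASO. PLAUR overlapped with SERPINE2 in both groups, with its libraries numbered 1 and 2 below and number 3 above. TFPI, SERPINB8 and TFPI2 formed the low end, with TFPI and SERPINB8 overlapping in both groups.

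Ratios of FPKM between genes within a library do not depend on the library size. For 3 ratios, chosen after the values were seen and therefore not tested, PLAT over PLAU was 1.86, 2.06 and 1.32 after SCARNA13 ASO, against 1.08, 1.15 and 0.563 after Control ASO. The groups did not overlap in PLAT over PLAU, and the libraries numbered 3 kept the direction of the others. These ratios were not corrected for GC content, which differs by -8.34 points from PLAU to PLAT. Median log2 deviations of the top and bottom GC quartiles were 0.93 and -0.55 for library 3 of the controls. For SCARNA13 ASO 3 they were 0.69 and -0.44. How far this GC trend moved PLAT over PLAU was not tested. PLAU over PLAUR was lower after SCARNA13 ASO in 3 of 3 pairs, at 3.16, 3.20 and 1.95 against 3.77, 3.74 and 2.67 after Control ASO. F3 over TFPI was also lower in 3 of 3 pairs, at 6.76, 6.48 and 11.6 after SCARNA13 ASO against 8.08, 8.66 and 15.8 after Control ASO.

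**Figure D3:**
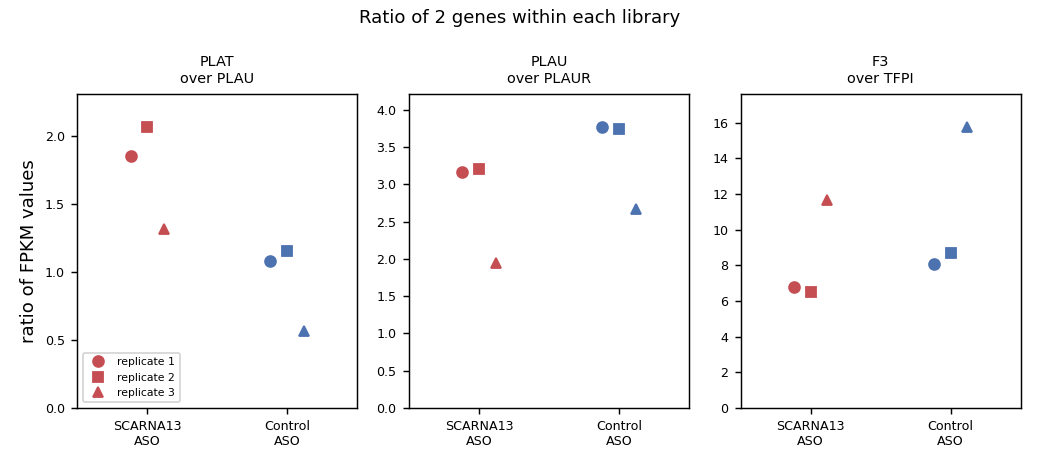
Each panel plots the FPKM of the first gene divided by that of the second in each library, with SCARNA13 ASO in red on the left and Control ASO in blue on the right. The lowest PLAT over PLAU after SCARNA13 ASO, 1.32, lay above the highest after Control ASO, 1.15, and the groups overlapped in the other ratios.

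Other genes of the pathway were read from lists, with the fit that used GC correction and block, in which the median of all genes was 0.0; with group alone 0 genes of any list passed. RNA of plasminogen itself was barely detected. PLG was listed at 0 in the 3 SCARNA13 ASO libraries, and its values after Control ASO came from 1 read in all. Of the 8 genes for plasminogen and its receptors, 6 were tested, 0 rose and 0 fell, with a median log2 fold change of 0.11. ANXA2, the annexin that binds plasminogen and PLAT at the cell surface, averaged 154 ± 21.5 FPKM after SCARNA13 ASO and 128 ± 27.7 FPKM after Control ASO (SD, n = 3 each) and stood at 0.27 ± 0.055 on the log2 scale (SE, n = 3; limma adjusted p = 0.057). PLGRKT, a plasminogen receptor, stood at 0.48 ± 0.090 (limma adjusted p = 0.0517). CKAP4, a surface protein that binds PLAT, stood at 0.24 ± 0.075, and HMGB1, which binds plasminogen, at -0.086 ± 0.076.

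Among other inhibitors of the activators and of plasmin, 1 of 10 genes was tested, and 0 rose or fell. SERPINB2, encoding plasminogen activator inhibitor 2, averaged 12.3 ± 1.07 FPKM after SCARNA13 ASO and 15.1 ± 3.24 FPKM after Control ASO (SD, n = 3 each) and stood at -0.29 ± 0.071 (limma adjusted p = 0.074).

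The list of urokinase receptor partners and of clearance receptors had 11 of 14 genes tested, of which 2 rose, 0 fell and 9 did not pass, with a median of 0.12. Of all genes tested in that fit, 3.06% rose and 2.15% fell. LRP1, the endocytic receptor that takes up complexes of activators with serpins, measured 11.2, 12.5 and 21.0 FPKM after SCARNA13 ASO, against 8.21, 9.43 and 19.3 FPKM after Control ASO, and rose 1.30-fold (limma adjusted p = 0.0384). ITGA3, an integrin chain that can pair with the urokinase receptor, rose 1.41-fold (limma adjusted p = 0.037) and averaged 210 ± 107 FPKM after SCARNA13 ASO and 157 ± 82.9 FPKM after Control ASO (SD, n = 3 each). VTN, encoding the matrix ligand vitronectin, stood at -0.73 ± 0.16 on the log2 scale (SE, n = 3; limma adjusted p = 0.0646). EGFR, which can signal together with the urokinase receptor, stood at 0.23 ± 0.058 (limma adjusted p = 0.0767).

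Coagulation genes had 9 of 15 members tested, of which 1 rose and 0 fell, against 3.06% and 2.15% of all genes. Their median was -0.19. GAS6, a vitamin K-dependent ligand of the TAM receptor kinases, measured 21.7, 22.2 and 50.5 FPKM after SCARNA13 ASO, against 13.6, 13.8 and 33.7 FPKM after Control ASO, and rose 1.63-fold (limma adjusted p = 0.036). F7, which encodes the partner of tissue factor, was listed at 0 in all libraries. PROCR, the endothelial protein C receptor, stood at -0.26 ± 0.057 (SE, n = 3), the thrombin cofactor THBD at 0.40 ± 0.11 and the thrombin receptor F2R at -0.28 ± 0.10, none of which passed. Among other serine proteases and Kunitz inhibitors, 4 of 14 were tested and 0 passed, with a median of 0.04. F12, encoding a clotting factor that can activate plasminogen, stood at -0.57 ± 0.11 (limma adjusted p = 0.0529), the secreted protease HTRA1 at 0.45 ± 0.096, APLP2 at 0.12 ± 0.075 and PRSS23 at -0.039 ± 0.065.

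Other serpins of clades B and H gave 4 tested genes of 10 and 0 calls, with a median of -0.10. The collagen chaperone SERPINH1 stood at 0.14 ± 0.049 on the log2 scale (SE, n = 3), SERPINB9 at -0.27 ± 0.11, SERPINB1 at -0.13 ± 0.093 and SERPINB7 at -0.068 ± 0.12. All 14 transcription factors known to act on the urokinase or tissue factor promoter were tested, and 0 passed, with a median of -0.09. The AP-1 subunit JUND stood at 0.48 ± 0.089 (limma adjusted p = 0.0515) and JUNB at -0.70 ± 0.17 (limma adjusted p = 0.0716). JUNB measured 15.2, 15.1 and 26.2 FPKM after SCARNA13 ASO, against 20.3, 20.6 and 75.5 FPKM after Control ASO. The NF-kappaB subunit RELA stood at -0.36 ± 0.078 and EGR1 at -0.28 ± 0.082. The 3 list genes that passed, LRP1, ITGA3 and GAS6, did so no longer when a single pair of 1 or 2 was left out, with limma adjusted p between 0.0872 for GAS6 and 0.152 for LRP1. Their GC content is 60.1%, 61.3% and 61.8%, in that order. The GC correction moved their log2 fold changes from 0.31, 0.43 and 0.63 with the block alone to 0.38, 0.50 and 0.70. With the block alone none of the 3 passed (limma adjusted p = 0.126, 0.0814 and 0.0586).

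**Figure D4:**
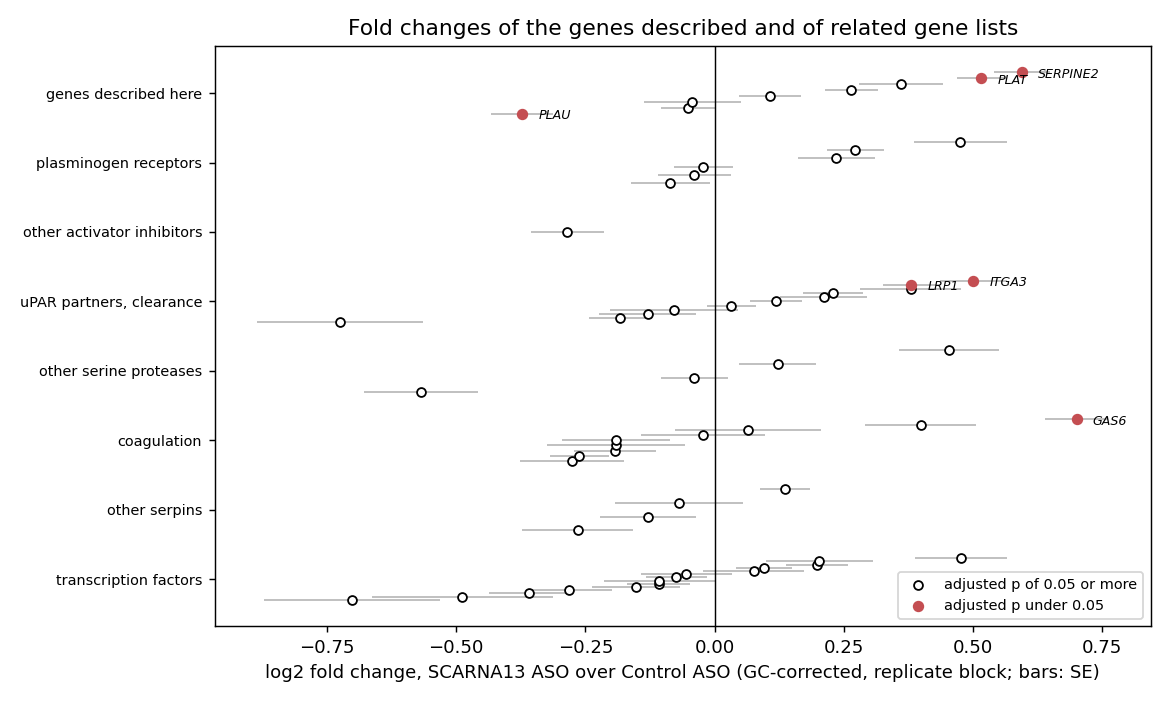
Points are log2 fold changes of SCARNA13 ASO over Control ASO with their SE, from the fit with GC correction and replicate block, and filled points passed an adjusted p of 0.05. PLAT, SERPINE2, LRP1, ITGA3 and GAS6 passed on the higher side and PLAU on the lower side.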

How the data were processed

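RNA from HCCLM3 cells (1 µg) went into Illumina TruSeq RNA libraries (labels' protocols), a kit generally known not to mark strand. TopHat2 2.0.9 and Bowtie2 2.0.6 with hg19 appear in the submitters' processing notes; the counting tool, annotation and library size were not given in the sources used here. Per gene and library the authors deposited 1 FPKM value. The files' gene positions match GRCh38, since 97.6% of 58039 identifiers had the same start and end in GENCODE 29. FPKM times gene length was a whole multiple of 1 step per library for 100% of values (tolerance 0.01 reads), from which reads were recovered.

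Fits used limma 3.58.1 in R 4.3.3 on log2(FPKM + 0.5), over genes averaging 1 FPKM or more across the 6 libraries, so fold changes understate low genes. The first fit had group as its only term. The second subtracted from each library a loess trend (span 0.5) on the GC content of the longest GENCODE 29 transcript and added the replicate number as a block. p-values were two-sided and Benjamini-Hochberg adjusted over all genes tested, at 0.05. Same-numbered libraries were taken as pairs because deviations from the group means correlated at 0.84, 0.78 and 0.91; crossing replicates 1 and 2 gave 0.81, so the values set apart only replicate 3. Where 1 library of an arm or 1 number was left out, the same models were refitted.

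The 9 genes, the 7 gene lists and the tests were chosen with earlier results of these data known. Named list genes are up to 4 per list with the smallest p in the second fit, as none passed in the first; PLG, F7 and C10orf55 were named after their values were seen. A further gene of these lists is not reported here. Cell type markers of fibroblasts (12.2 to 12.9 FPKM summed after SCARNA13 ASO, 11.3 to 14.1 after Control ASO) and leukocytes (2.28 to 3.40 and 2.90 to 6.92) were summed beside those of endothelium and hepatocytes (1647 to 3372 and 1792 to 4547). The hepatocyte sum came almost wholly from KRT8 and KRT18, at 766 and 879 FPKM in SCARNA13 ASO 2, while most markers of that list were under 1 FPKM.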

Additional observations from a re-analysis of the deposited data

How the results depend on the processing

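With group as the only term, 0 genes and 0 of the 9 passed, also with pseudocounts of 0.1 and 1, with no filter or a minimum of 5 FPKM, without the intensity trend, scaled to total reads, with limma-voom, with the replicate block, and without any 1 library. Beside these, GC correction with the replicate block passed 526 genes and 3 of the set. Replicates 1 and 2 alone passed 629 genes and 3 of the set with the block, and 922 and 5 with group only. GC correction with block passed 14 genes without replicate 1 of both groups, 0 without replicate 2 and 763 without replicate 3, and 0, 0 and 4 of the set.

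PLAU, PLAT, SERPINE2, SERPINB6 and TFPI kept their direction in every alternative run. Over all of them PLAT ran from 0.47 to 0.62 on the log2 scale, SERPINE2 from 0.54 to 0.71, SERPINB6 from 0.21 to 0.37, PLAU from -0.61 to -0.14 and TFPI from 0.049 to 0.70. Leaving out 1 library gave ranges that cross 0 for PLAUR (-0.53 to 0.33), SERPINB8 (-0.15 to 0.055) and F3 (-0.027 to 0.25). Among list genes those ranges were -0.46 to 0.35 for HMGB1, -1.08 to 0.017 for F12, -0.078 to 0.21 for APLP2, -0.19 to 0.14 for PRSS23, -0.22 to 0.41 for SERPINH1, -0.28 to 0.087 for SERPINB1, -0.22 to 0.094 for SERPINB7, -0.86 to 0.17 for RELA and -1.17 to 0.45 for EGR1. Scaling to total reads gave 0.028 for SERPINB8, 0.040 for HMGB1 and 0.062 for PRSS23, and moved the median of all genes to 0.06; the report gives its effect on overlaps. With GC correction and block, PRSS23 stood at 0.002 without replicate 3 and SERPINB7 at 0.054 without replicate 2. The cause was not tested. Of the 25 list genes, 16 kept their direction throughout. Few reads limit what can be said of SCARNA13, at 7 against 13 reads, and of TFPI2, at 108 against 177 reads.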
